A study of Bos taurus with 35 samples.

Results

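CIDEC, CIDEA, LGALS12 and PLIN4 encode proteins of the lipid droplet, and their mRNAs were followed in beef longissimus muscle after slaughter. They are 4 of the 27607 genes of the count table: CIDEC (ENSBTAG00000007969), CIDEA (ENSBTAG00000046547), LGALS12 (ENSBTAG00000007108) and PLIN4 (ENSBTAG00000015690). The set was chosen by its measured values, namely lower counts at 24, 48 or 72 h than at 0 h in these same samples, so the falls against 0 h describe the choice and are given without a test. The 6 h contrast and the steps between late times did not choose the genes and are tested. They share libraries with the contrasts that did. The samples came from 7 heifers of British × Continental crossbreeding, weighing 525 to 635 kg. Each carcass gave 1 core of longissimus thoracis et lumborum, the long muscle of the back, at 0 h (45 min post-mortem), 6, 24, 48 and 72 h, which makes 35 libraries with 7 animals per time point. Carcasses were kept under refrigeration, with no treatment or genotype compared. Because every time point was a different core of the same carcass, a change with time and a difference between cores cannot be told apart within an animal. In such bulk samples fewer cells of a type and less RNA per cell cannot be told apart either.

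Lipid droplets are the cell's stores of neutral lipid, a core of triglyceride and sterol esters under a layer of phospholipid and protein. In muscle they are found in the fat cells that form marbling between the fibres and, as smaller droplets, inside the fibres themselves. CIDEA and CIDEC sit where droplets touch and pass lipid from the smaller droplet to the larger, which favours the few large droplets of fat cells. LGALS12 encodes galectin-12, a droplet-associated galectin of adipocytes that restrains lipolysis. PLIN4 is a perilipin, a coat protein of droplets, and it is made in adipocytes and in striated muscle.

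Total counts per library lay between 20568418 and 104275821 (median 40133660), and levels are given as CPM, the count divided by the library size and set to a common scale, with TMM factors that match libraries on the bulk of their genes. No 2 libraries held the same counts. The 4 genes were among the 14630 that passed the filter on low counts, LGALS12 through its 0 and 6 h libraries only. Levels are not compared between genes, since gene lengths were not used.

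CIDEC was abundant at 0 and 6 h and nearly gone from 24 h on. At 0 h its level was 5.05 CPM in the lowest animal (103), 31.4 at the median and 52.2 in the highest (107). At 6 h it was 3.69 in the lowest animal (101), 24.5 at the median and 91.4 in the highest (206). The 6 h libraries spanned the whole range of the 0 h libraries, and animal 206 stood far above the next at 25.8 CPM.

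At 24 h the lowest, median and highest CIDEC levels were 0.222, 0.774 and 1.26 CPM. At 48 h they were 0.148, 0.352 and 1.21 CPM, and at 72 h 0.108, 0.481 and 0.911 CPM. Every library from 24 h on was below every library of 0 and 6 h, and the 3 late time points overlapped each other throughout. These late levels rest on 19 to 45 reads per library at 24 h, 8 to 68 at 48 h and 4 to 48 at 72 h, so that their order among animals carries much counting error.

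Against 0 h, the fitted log2 fold changes of CIDEC at 6, 24, 48 and 72 h were -0.09 ± 0.35, -5.47 ± 0.47, -5.63 ± 0.48 and -5.87 ± 0.49 (SE, n = 7 animals). The last 3 correspond to 2.25, 2.02 and 1.71% of the 0 h level, and all 7 animals were lower at each. The 6 h difference did not pass the test (edgeR quasi-likelihood, FDR = 0.95), with 4 animals lower and 3 higher. Neither did the steps from 24 to 48 h (-0.16 ± 0.67, FDR = 0.9) and from 48 to 72 h (-0.24 ± 0.71, FDR = 0.83). With standard errors of this size, a further change comparable to them was not detectable at this depth.

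CIDEA, its paralogue, fell less far and stopped at a level that was still well covered by reads. At 0 h it was 2.94 CPM in the lowest animal (103), 6.53 at the median and 10.9 in the highest (201). At 6 h it was 3.36 in the lowest (101), 6.91 at the median and 27.6 in the highest (206), where the next animal was at 9.94. As for CIDEC, animal 206 alone set the upper end of the 6 h range.

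At 24 h the lowest, median and highest CIDEA levels were 1.54, 2.07 and 3.36 CPM. They were 1.37, 2.11 and 3.32 CPM at 48 h, and 1.98, 2.37 and 4.25 CPM at 72 h. Animal 201 was the highest at 0 h and at each of these 3 late times. The groups overlapped with 0 h, since only 6, 6 and 5 of the 7 late libraries lay under the lowest 0 h library, but each animal was below its own 0 h value.

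The fitted log2 fold change of CIDEA was 0.30 ± 0.26 for 6 h against 0 h (FDR = 0.67). For 24, 48 and 72 h it was -1.67 ± 0.28, -1.55 ± 0.28 and -1.37 ± 0.28, which correspond to 31.5, 34.2 and 38.7% of 0 h. No late step passed the test, with 0.12 ± 0.30 from 24 to 48 h (FDR = 0.82) and 0.18 ± 0.30 from 48 to 72 h (FDR = 0.68). The animal that began lowest, 103, also kept the largest share, 70.3, 71.8 and 84.2% of its CIDEA and 15.3, 6.38 and 4.48% of its CIDEC at 24, 48 and 72 h. Since the 0 h library enters both the starting level and the share, this is a description only.

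LGALS12 was a low count gene that went to the limit of detection. At 0 h it had no read in animal 103, a median of 0.793 CPM and 1.70 CPM in the highest animal (201). At 6 h the lowest was 0.0614 CPM (103, 4 reads), the median 0.458 and the highest 3.80 CPM (206), against 0.679 in the next animal. At 24 h the libraries ranged from 0 to 0.044 CPM. All 24 h libraries read lower than all 6 h libraries, while the 0 h range reached 0 through animal 103. A 24 h library without a read allows a level of up to 3 counts. That is up to 0.084 CPM, above the lowest 6 h value, so the 24 and 6 h groups cannot be called separate.

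Summed over the 7 libraries, LGALS12 had 323, 262, 7, 2 and 1 reads in order of time, and a read was seen in 6, 7, 5, 1 and 1 of the 7 libraries. Relative to the summed library sizes, the 6 h reads came to 95.1% of those of 0 h (95% exact interval 80.5 to 112.3). That share was set by animal 206, which held 179 of the 262 reads, and without it the 6 h reads came to 34.4% (26.6 to 44.2). The 24 h reads came to 1.94% (0.773 to 4.04). The 48 h reads came to 0.748% (0.0902 to 2.72) and the 72 h read to 0.305% (0.00769 to 1.71). These intervals cover counting error only and not the spread between animals. A library with no read allows a level of up to 3 counts, which for the 6 libraries without a read at 72 h is 0.0377 to 0.152 CPM, depending on depth.

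At 6 h the fitted log2 difference of LGALS12 was -0.47 ± 0.40 and did not pass the test (FDR = 0.66), with 4 animals lower and 3 higher. It rested on 1 library. Without animal 206 it was -1.28 ± 0.32 and passed (FDR = 0.031), while CIDEC, CIDEA and PLIN4 did not pass without that animal (FDR 0.5, 0.7 and 0.15). Leaving out animal 206, the highest library at 6 h, was chosen after the values were seen, so this pass is a description only. The steps from 24 to 48 h and 48 to 72 h did not pass the test (FDR = 0.68 and 0.82) and rest on the 7, 2 and 1 reads above, so no fold is given for them.

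PLIN4 declined in small steps over the whole period. At 0 h it was 124 CPM in the lowest animal (103), 153 at the median and 169 in the highest (201). At 6 h the lowest, median and highest levels were 94.5 (101), 125 and 180 CPM (206). At 24 h they were 75.8 (206), 108 and 143 CPM (202). Its groups overlapped at every time point.

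At 48 h the lowest, median and highest PLIN4 levels were 66.2 (107), 106 and 133 CPM (202), and at 72 h 33.4 (206), 83.7 and 132 CPM (202). The animals moved apart as the medians went down. Their coefficient of variation grew from 11.6% at 0 h to 36.7% at 72 h, whereas that of CIDEC was 57.1% at 0 h and 63.0% at 72 h. Animal 202 retained 81.6% of its 0 h PLIN4 at 72 h and animal 206 retained 23.4%, the extremes of the 7.

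The fitted log2 fold change of PLIN4 was -0.17 ± 0.16 for 6 h against 0 h (FDR = 0.7). For 24, 48 and 72 h it was -0.44 ± 0.16, -0.62 ± 0.16 and -0.90 ± 0.16, or 73.9, 65.0 and 53.5% of 0 h. All 7 animals were lower than at 0 h from 24 h on. At 24 h the level was 1.35 times lower, short of the fold change threshold of 1.5, and its FDR was not under 0.05 either. At 48 h it was 1.54 times lower, just inside that threshold. Without animals 101, 107 or 206 in turn, the 48 h value was -0.58, -0.50 or -0.56 (log2) and fell outside it. The steps did not pass the test one by one, with -0.19 ± 0.16 from 24 to 48 h (FDR = 0.45, lower in 7 of 7 animals) and -0.28 ± 0.16 from 48 to 72 h (FDR = 0.18, lower in 5 of 7).

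**Figure D1:**
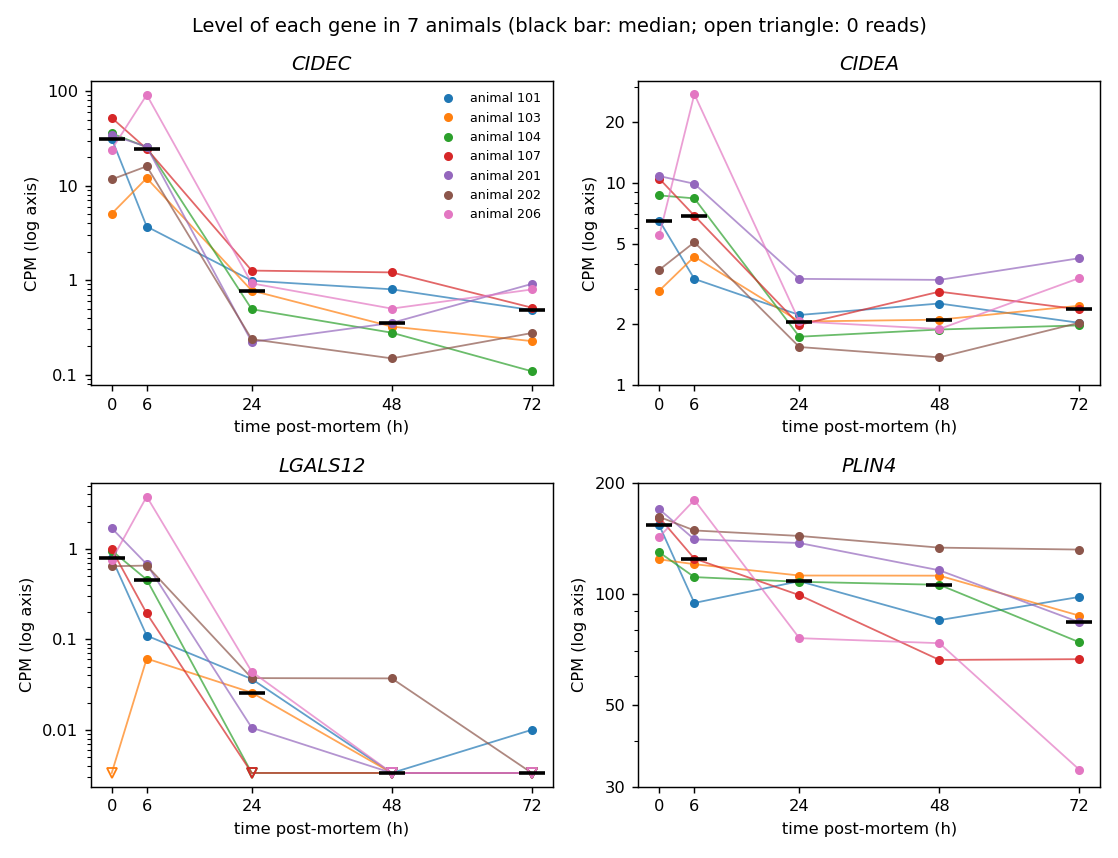
Levels of the 4 genes in CPM on a log axis against hours post-mortem on a linear axis, with 1 line per animal (n = 7), black bars at the medians and open triangles for libraries without a read. CIDEC, CIDEA and LGALS12 drop between 6 and 24 h and then stay level or undetected, while PLIN4 declines gradually and its animals spread out to between 33.4 and 132 CPM at 72 h.

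A gene was counted as changed where its FDR was under 0.05 and its fold change exceeded 1.5. By this rule 0 of the 4 genes were lower or higher at 6 h, where 0.185% of all tested genes were lower and 0.349% higher. At 24 h, 3 of the 4 were lower (CIDEC, CIDEA and LGALS12) where 0.95% of all genes were lower and 0.725% higher. At 48 h 4 of 4 were lower (6.3% of all genes lower, 2.96% higher), as were 4 of 4 at 72 h (15.4% lower, 9.8% higher). From 6 to 24 h the same 3 of 4 were lower (0.54% of all genes lower, 0.00684% higher). All these counts, the last included, follow from how the genes were chosen, and nothing is read from them. The log2 differences from 6 to 24 h were -5.39 ± 0.47 for CIDEC, -1.97 ± 0.28 for CIDEA and -0.27 ± 0.16 for PLIN4.

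LGALS12 had too few reads to pass in the later steps. Of the other 3 genes, 0 passed in the step from 24 to 48 h (1.88% of all genes lower, 0.376% higher) and 0 in the step from 48 to 72 h (3.73% lower, 0.786% higher). In the edgeR quasi-likelihood fit 0 of these 3 had an unadjusted p below 0.05 in either late step, and 0 of the 4 at 6 h, and DESeq2, limma voom and the edgeR likelihood ratio test also called 0.

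Before the fall, the levels of CIDEA and CIDEC rose and fell together between animals, while their relations with LGALS12 depended on single animals. Over the 7 animals at 0 h, CIDEA and CIDEC had a Pearson r of 0.94 (exact permutation p = 0.00079, adjusted over 6 pairs p = 0.0024) and a Spearman rho of 0.893 (p = 0.012, adjusted p = 0.025). CIDEA and LGALS12 had r = 0.794 (exact permutation p = 0.0002, adjusted p = 0.0012) and the same order of animals (rho = 1.0, p = 0.0004, adjusted p = 0.0024). With the 2 animals farthest from the median of CIDEA left out, r was 0.807 and 0.799 for these pairs. Animal 103 had no LGALS12 read at 0 h, and without it the relation of CIDEA with LGALS12 was no longer past the threshold.

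CIDEC and LGALS12 had r = 0.874 (exact permutation p = 0.0097, adjusted p = 0.019) and rho = 0.893 (p = 0.012, adjusted p = 0.025), but r was 0.31 without the 2 farthest animals, so that this relation rested on them. PLIN4 showed weaker relations at 0 h, none past the threshold after adjustment. Its r was 0.465 with CIDEA (exact permutation p = 0.28, adjusted p = 0.28; rho = 0.536, p = 0.24, adjusted p = 0.28) and 0.464 without the 2 farthest. With CIDEC r was 0.49 (exact permutation p = 0.26, adjusted p = 0.28; rho = 0.286, p = 0.56, adjusted p = 0.56) and 0.333 without them. With LGALS12 r was 0.693 (exact permutation p = 0.04, adjusted p = 0.06; rho = 0.536, p = 0.24, adjusted p = 0.28), which became -0.375 without the 2 farthest.

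The same comparison was made with adipocyte markers. Of 20 adipocyte genes written down without droplet genes, 15 had a symbol, and these include LPL, which muscle fibres also make. Their summed level at 0 h ranged from 527.6 to 1901 CPM. Across animals it went with CIDEC (r = 0.953, exact permutation p = 0.0016, adjusted over 4 genes p = 0.0032; rho = 0.929, p = 0.0067, adjusted p = 0.009). It went with CIDEA (r = 0.946, exact permutation p = 0.0012, adjusted p = 0.0032; rho = 0.929, p = 0.0067, adjusted p = 0.009) and LGALS12 (r = 0.857, exact permutation p = 0.0075, adjusted p = 0.01; rho = 0.929, p = 0.0067, adjusted p = 0.009).

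Without the 2 farthest animals these r were 0.817, 0.917 and 0.882. For PLIN4 the relation did not pass the test (r = 0.576, exact permutation p = 0.18, adjusted p = 0.18; rho = 0.429, p = 0.35, adjusted p = 0.35), and r was -0.045 without the 2 farthest. At 6 h r with the adipocyte sum was 0.972 for CIDEA, 0.97 for CIDEC, 0.907 for LGALS12 and 0.861 for PLIN4. Without the 2 farthest the first 3 were 0.882, 0.934 and 0.823, while PLIN4 came to 0.121 and so rested on those animals.

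Although no member passed the test at 6 h, single animals moved a long way between 0 and 6 h. The summed adipocyte level changed by -1.71 (log2) in animal 101, -1.03 in 107, -0.60 in 201, -0.27 in 104, 0.09 in 202, 0.11 in 103 and 1.81 in 206. CIDEC, CIDEA and LGALS12 moved in the same direction as that sum in 7 of 7 animals each and PLIN4 in 5 of 7. In animal 101 CIDEC went to 11.7% of its 0 h level, and in animal 206 to 379%.

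The 0 to 6 h change of each gene followed the change of the adipocyte sum. This comparison was chosen after the values were seen, so its p-values are a description only. Pearson r was 0.989 for CIDEA, 0.986 for PLIN4, 0.937 for LGALS12 and 0.924 for CIDEC, and rho was 1 for the first 3 and 0.964 for CIDEC. The exact permutation p of r, adjusted over the 4 genes, was 0.00026 for CIDEA, PLIN4 and LGALS12 and 0.0054 for CIDEC, and that of rho was 0.00053 for the first 3 and 0.0028 for CIDEC (n = 7; unadjusted p of r 0.0002 and 0.0054, of rho 0.0004 and 0.0028). Without the 2 animals farthest from the median, r was 0.977, 0.965, 0.909 and 0.894. The same libraries gave both quantities in each pair, and the share of fat in each core was not measured, so its part in these changes was not tested.

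**Figure D2:**
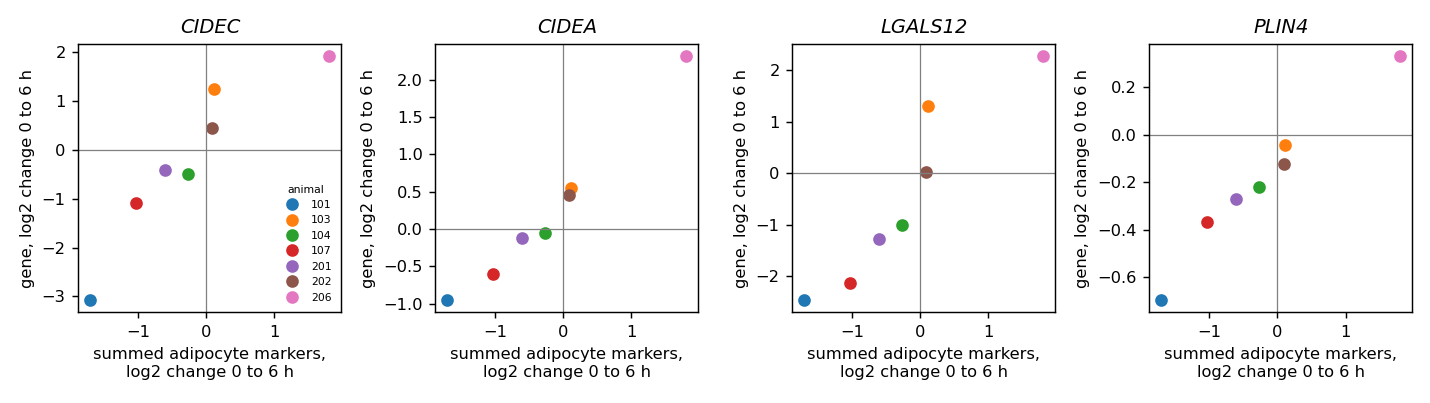
Change from 0 to 6 h of each gene against the change of the summed adipocyte markers in the same animal, both as log2 differences, with 1 point per animal (n = 7) and lines at no change. Animal 101 lies at the lower left and animal 206 at the upper right of every panel, and the PLIN4 axis covers a much narrower range than the others.

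Expressed relative to the adipocyte sum, CIDEA was higher at 6 h than at 0 h in 7 of 7 animals, by 0.45 ± 0.16 on the log2 scale (SD, n = 7). The exact two-sided sign flip test gave p = 0.016, the smallest that 7 animals allow, and p = 0.062 after adjustment over the 4 genes, which does not pass the threshold. CIDEC (0.02 ± 0.75, adjusted exact p = 0.92), PLIN4 (0.03 ± 0.80, adjusted exact p = 0.92) and LGALS12 (-0.24 ± 0.82, adjusted exact p = 0.91) showed no such shift beyond the spread between animals.

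At the late times the members parted from the adipocyte sum in different directions, given here as a description. The log2 ratio of CIDEC to it changed by -3.48 ± 1.11, -3.70 ± 0.94 and -3.69 ± 1.17 (SD) for 24, 48 and 72 h, each time lower in all 7 animals. CIDEA was near it or above it, at 0.09 ± 0.41, 0.39 ± 0.49 and 0.71 ± 0.58. PLIN4 was above it, at 1.24 ± 0.42, 1.27 ± 0.33 and 1.05 ± 0.65. No value is given for LGALS12, because with 0 to 3 reads per library its log2 ratio is set by the prior count. SCD, FASN and LPL weighed most in the sum, with 0 h medians of 538, 229 and 223 CPM beside 1225 CPM for the sum. Against 0 h, ADIPOQ, LEP, KLB and TRARG1 stood at -6.74, -6.69, -6.22 and -6.18 at 24 h, and CIDEC at -5.47. The rest of the list stood above CIDEC, so the ratio does not set CIDEC apart from every adipocyte marker.

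The adipocyte sum itself still stood at 217.3 to 336.6 CPM at 72 h, to which LPL contributed 84.3 to 191 CPM. The defining adipocyte hormones were near 0. From 24 h on ADIPOQ, adiponectin, did not exceed 0.747 CPM in any library and LEP, leptin, did not exceed 0.176 CPM. Of the 15 genes, 0 passed the test at 6 h (edgeR quasi-likelihood, lowest FDR = 0.31, 1 with an unadjusted p below 0.05, and 0 by DESeq2, voom and the likelihood ratio test), and 13, 14 and 14 were lower at 24, 48 and 72 h (0.95, 6.3 and 15.4% of all genes) with none higher. Symbols came from the study's table of differentially expressed genes alone, here and for every list below, so being found changed was a condition of being counted. Their median log2 fold changes were -0.21, -3.04, -2.72 and -3.61.

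The plot of CIDEA against CIDEC shows how the paralogues parted. In a straight line through the 7 libraries of 0 h, CIDEA rose by 0.182 CPM for each CPM of CIDEC and met the axis at 1.93 CPM (1.34 to 2.13 with each animal left out in turn). Through the 6 h libraries it met the axis at 1.23 CPM (0.815 to 1.71). The 21 libraries of 24 to 72 h, with CIDEC at 1.26 CPM or less, had CIDEA between 1.37 and 4.25 CPM (median 2.07, coefficient of variation 30.2%). These lines were drawn after the values were seen.

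**Figure D3:**
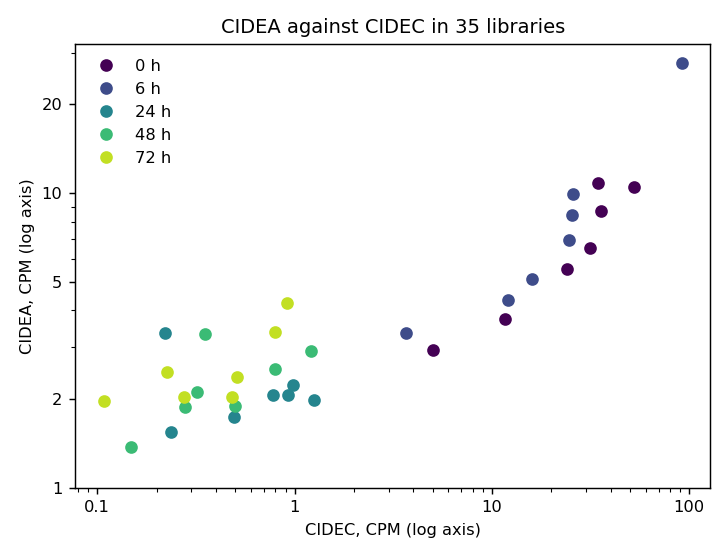
CIDEA against CIDEC in the 35 libraries, both in CPM on log axes, coloured by hours post-mortem. The 0 and 6 h libraries rise together, whereas the 21 later libraries spread along CIDEC between 0.108 and 1.26 CPM with CIDEA between 1.37 and 4.25 CPM.

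Other genes of the droplet were taken from a list of 42 symbols, of which 12 could be matched to an ID. Since these too were all found changed at some time point, the counts cannot speak for droplet genes that stayed level. At 6 h 0 of 12 passed (edgeR quasi-likelihood, lowest FDR = 0.22, 2 with an unadjusted p below 0.05, and 0 by DESeq2, voom and the likelihood ratio test). At 24 h 2 were lower, at 48 h 3, and at 72 h 9 were lower and 3 higher. Of all tested genes, 0.185, 0.95, 6.3 and 15.4% were lower at 6, 24, 48 and 72 h. The shares that were higher were 0.349, 0.725, 2.96 and 9.8%. Their median log2 fold changes were -0.08, -0.21, -0.46 and -0.74, and those of all tested genes were -0.0015, -0.004, -0.0048 and 0.0141.

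Among the perilipins, PLIN1, the coat protein of the adipocyte's large droplet, took the course of CIDEC. It went from a median of 55.3 CPM at 0 h (9.34 to 80.0) to 3.03 at 24 h, 3.20 at 48 h and 3.62 CPM at 72 h, and the late libraries, at 2.55 to 4.51 CPM, did not overlap with those of 0 or 6 h. Its log2 fold changes were -0.50 ± 0.34 at 6 h (FDR = 0.55), -3.77 ± 0.39, -3.76 ± 0.39 and -3.60 ± 0.39. PLIN2, which coats droplets in most cell types, was lower only at 72 h by the rule (-0.68 ± 0.11), and its values at 6, 24 and 48 h were 0.02 ± 0.11, -0.32 ± 0.11 and -0.28 ± 0.11.

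PLIN5, the perilipin of oxidative tissues, went the other way. Its lowest, median and highest levels were 10.5, 16.6 and 20.6 CPM at 0 h and 19.7, 21.6 and 31.3 CPM at 72 h, so the groups overlapped slightly, with all 7 animals higher. Its log2 fold changes were 0.00 ± 0.13, 0.09 ± 0.13, 0.24 ± 0.13 and 0.59 ± 0.13, of which the last passed the rule, though not with scaling by total counts (0.42). PLIN5 lies next to PLIN4 in the RefSeq gene table of a later bovine assembly. In a comparison made after the values were seen, the log2 ratio of PLIN4 to PLIN5 moved by -0.20 ± 0.35, -0.52 ± 0.43, -0.87 ± 0.66 and -1.52 ± 0.87 (SD) over the 4 later times, lower in 7 of 7 animals at the last 2.

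**Figure D4:**
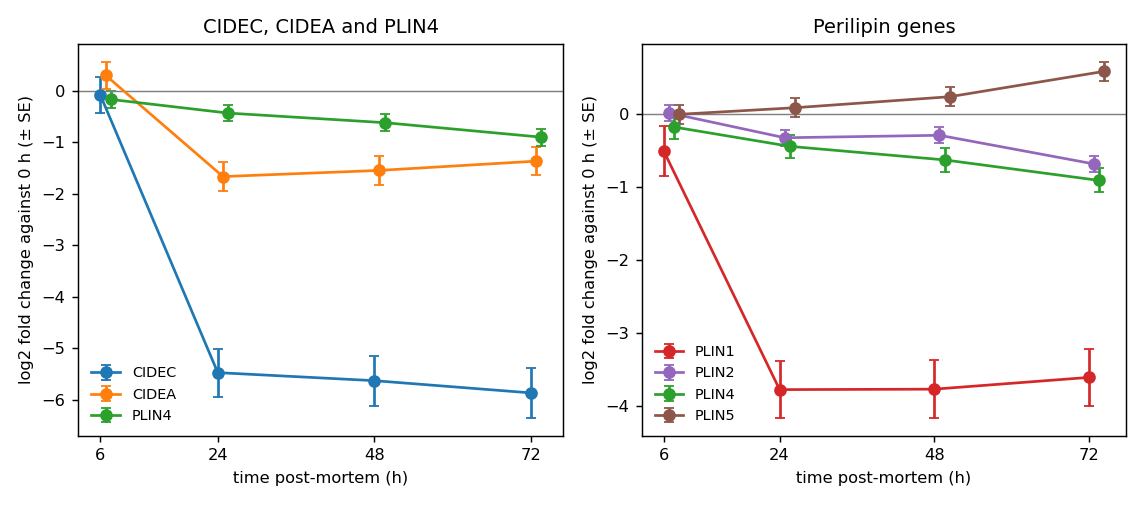
Fitted log2 fold change against 0 h (± SE, n = 7 animals) by hours post-mortem for CIDEC, CIDEA and PLIN4 (left) and for the perilipin genes (right), with points set slightly apart sideways. PLIN1 and CIDEC reach their low level by 24 h, PLIN4 and PLIN2 go down in small amounts to -0.90 and -0.68 at 72 h, and PLIN5 stands at 0.59.

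Most of the remaining droplet genes passed the rule only at 72 h. LIPE, hormone-sensitive lipase, which cuts stored diglyceride, fell early like CIDEA, with -1.32 ± 0.19, -1.28 ± 0.20 and -1.19 ± 0.19 at 24, 48 and 72 h. PCYT1A, which makes phosphatidylcholine for the droplet surface, was lower at 48 h (-0.96 ± 0.16) and 72 h (-1.79 ± 0.17), and its later steps passed the test (edgeR quasi-likelihood FDR = 0.0081 from 24 to 48 h and 0.0011 from 48 to 72 h). LPIN1, a phosphatidate phosphatase, was at -1.18 ± 0.26 at 72 h.

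SPART (-0.77 ± 0.07), LDAH (-0.76 ± 0.19), ACSL1, an acyl-CoA synthetase (-0.72 ± 0.10), and FITM2 (-0.72 ± 0.10), which helps droplets bud from the endoplasmic reticulum, passed the rule at 72 h and not before. At 48 h their values were -0.44 ± 0.07, -0.45 ± 0.19, -0.46 ± 0.10 and -0.46 ± 0.10, under the fold change threshold, and the rule does not test the difference between these times. FITM1, the muscle-enriched relative of FITM2, was higher at 72 h (0.79 ± 0.06), as was AUP1 (0.64 ± 0.05), the latter not with scaling by total counts (0.46). At 48 h FITM1 and AUP1 stood at 0.52 ± 0.06 and 0.41 ± 0.05, under the fold change threshold. Both were already higher than at 0 h in 7 of 7 animals at 24 h (0.22 each) and at 48 h.

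Of 24 regulators of droplet genes written down, 6 had a symbol, and by the rule 0, 2, 5 and 5 of them were lower at 6, 24, 48 and 72 h with none higher, where the shares of all genes were 0.185, 0.95, 6.3 and 15.4% (at 6 h edgeR quasi-likelihood lowest FDR = 0.54, 0 with an unadjusted p below 0.05, and 0 by the 3 other tests). Their median log2 fold changes were -0.11, -0.24, -0.78 and -1.29. PPARG, the regulator of adipocyte differentiation, went down early and no further (-0.80 ± 0.17, -0.68 ± 0.17 and -0.58 ± 0.17). PDE3B, the phosphodiesterase through which insulin holds back lipolysis, stood at -1.25 ± 0.24, -1.14 ± 0.24 and -1.39 ± 0.24. PPARA, a regulator of fatty acid oxidation, went down late (-0.28 ± 0.17, -1.09 ± 0.18 and -1.88 ± 0.18), as did its coactivator PPARGC1B and the insulin receptor INSR.

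Marker lists of other cell types were again limited to genes with a symbol, and their counts stand beside 6.3% of all genes lower and 2.96% higher at 48 h, and 15.4% lower and 9.8% higher at 72 h. Muscle fibre genes, led by CKM and TNNT3, were abundant in every library, as the tissue label says. Of 5 matched among 13, 4 were higher and 1 lower at 72 h (RYR1, the calcium release channel, -0.82 ± 0.14), and their summed level was 33810 to 40380 CPM at 0 h and 51820 to 74710 CPM at 72 h. Of 6 macrophage genes among 8, 0, 0, 5 and 6 were lower at the 4 later times, and their sum went from 42.3 to 143 CPM at 0 h to 13.6 to 48.2 CPM at 72 h. Both fibroblast genes matched among 7 were lower at 72 h (sum 152 to 323 CPM at 0 h and 61.2 to 161 CPM at 72 h). Both globin genes matched among 4 passed the rule as higher at 48 h and at no other time (sum 0.126 to 72.2 CPM at 48 h), and 0 of 8 endothelial genes were matched. The part of these shifts in the course of PLIN4 was not tested.

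The genes whose level was most like each member over the 35 libraries were sought among 2579 genes with a symbol and at least 1 CPM on average. The 35 libraries share 7 animals and 5 time points, so r is a description here. For CIDEC these were TRARG1 (r = 0.985), ADIPOQ (0.973), THRSP (0.973), ACSM1 (0.972) and LEP (0.965). For LGALS12 they were FASN (0.96), ELOVL6 (0.958), ACACA (0.948), SCD (0.946) and PLIN1 (0.942). For CIDEA they included CKB (0.935), TKT (0.932), S100G (0.929) and FASN (0.917).

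For PLIN4 the list held no gene of the other 3 lists. It was led by SRL, which encodes sarcalumenin of the sarcoplasmic reticulum (r = 0.937), followed by MYPN, which encodes the sarcomere protein myopalladin (0.919), SMYD1 (0.917), SPTB (0.917) and GORASP1 (0.914). Over the same libraries PLIN4 had r of 0.456 with CIDEA, 0.519 with CIDEC and 0.646 with LGALS12, compared with 0.867 to 0.9 among those 3 genes.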

How the data were processed

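Per the labels and the study's methods, polyadenylated RNA libraries were trimmed (Trimmomatic 0.39), mapped (STAR 2.7.0f) and counted per gene (featureCounts 1.6.4, Ensembl annotation), with FastQC 0.11.8, tools named in the submitters' processing notes. The deposited values are raw read counts, whole numbers not normalized by the authors. Counting is described as strand specific, although an unstranded option is printed. In RefSeq's gene table for a later assembly PLIN4 overlaps HDGFL2 and CIDEA overlaps an uncharacterised gene.

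Counts of 35 libraries were fitted with edgeR 4.0.16 (R 4.3.3; limma 3.58.1, DESeq2 1.42.0 as alternatives): filterByExpr (minimum count 10), TMM (factors 0.846 to 1.11), the quasi-likelihood test with animal as block, and Benjamini-Hochberg adjustment over 14630 genes. A call needed an FDR under 0.05 together with a fold change over 1.5. Log2 values per library used a prior count of 2. Animals were the replicates. Same-animal libraries, from 1 carcass, deviated together from the time point means (median r = 0.578, over 0.1 in 70 of 70 pairs). For different animals at different time points the median r was -0.105, and 20 of 420 pairs were over 0.1. Subtracting the mean of each time point pulls that median below 0, so nothing is read from its sign. The fit was also run on simulated data, with no outcome given here.

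The members, gene lists and rules were chosen with earlier results of these data known. Named were the members, matched droplet genes, abundant list genes and the 5 genes most like each member among those of at least 1 CPM, of which 1 is not reported here. Lists covered droplet genes and their regulators, adipocytes, muscle fibres, endothelial cells, fibroblasts, macrophages and erythroid cells. Symbols came from the study's gene table (3106 IDs), whose fold changes and p-values were not used. Correlations used exact permutations (5040), paired ratios exact sign flips (128). Alternatives covered tests, scaling, filters, thresholds, the block, the samples fitted, reads thinned to equal depth and single animals left out. Protein and promoter sequences were not used here, and gene coordinates served only to find neighbouring and overlapping genes.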

Additional observations from a re-analysis of the deposited data

Results flagged for a closer look

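In 20 groups of 7 libraries (4 genes at 5 time points), the distance of the highest or lowest library to its neighbour was divided by the range of the group and set against Dixon's critical value for 7 samples. The usual rate of about 1 pass in 20 holds for independent groups of normally distributed values. These groups share animals and libraries and are on the CPM scale, so that rate is no yardstick here. Of the 20 groups 6 passed, 2 of them by construction. At 6 h the library of animal 206 stood above the others for CIDEC (91.4 CPM, next 25.8, ratio 0.748), CIDEA (27.6 CPM, next 9.94, ratio 0.729) and LGALS12 (3.80 CPM, next 0.679, ratio 0.835), and these 3 passes are 1 library. At 24 h animal 201 stood above the others for CIDEA (3.36 CPM, next 2.23, ratio 0.625). These 2 are LGALS12 groups with all but 1 library at 0, where the library with reads must pass, at 48 h (animal 202, 0.0371 CPM, 2 reads) and at 72 h (animal 101, 0.01002 CPM, 1 read).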

How the results depend on the processing

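Of 265 recomputed fold changes of the 4 genes against 0 h, 259 kept their direction, and the 6 that did not were at 6 h. For 24, 48 and 72 h the direction was fixed by the choice of genes. Of 280 recomputed counts of called members, 279 stayed within 1.5 times, the exception being 1 gene (LGALS12) lower at 6 h without animal 206. That tolerance treats 4 and 3 genes as alike, and the counts at 24, 48 and 72 h follow from the choice of genes. With an FDR under 0.01 and a fold change over 2, 3 of 4 were lower at 48 and 72 h, since PLIN4 did not reach that fold change. With glmTreat it was also 3 of 4 at both times. With a minimum of 1 CPM in 7 samples, or with only the 14 samples of 2 time points, LGALS12 was not tested. Directions at 6 h were unstable: CIDEC ranged from -0.49 to 0.22 with single animals left out (0.217, 0.001 and 0.093 without 101, 104 and 107), and CIDEA from -0.17 to 0.47 (-0.169 without 206). Without the replicate block, the 6 h values of CIDEC and LGALS12 were 0.031 and 0.025, and 1 other droplet gene rather than 2 was lower at 24 h; no other count of called members or droplet genes against 0 h changed by over 1.5 times. Other droplet genes at an FDR below 0.05 alone numbered 2 higher at 24 h, and 7 lower and 2 higher at 48 h. At 72 h, 4 were lower and 0 higher with an FDR under 0.01 and a fold change over 2. With glmTreat 5 were lower and 1 higher, where 1245 and 494 of 14630 genes were. With total counts 1 was higher, where 702 of 14630 genes were. All-gene shares for the other thresholds are not given, and nothing is read from these counts.

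Scaling by total counts moved the median of all genes at 72 h from 0.01 to -0.16 (log2) and the higher share of calls from 38.9 to 17.8% at 72 h, from 32.0 to 18.7% at 48 h, from 16.7 to 4.29% in the step from 24 to 48 h and from 17.4 to 6.88% in the step from 48 to 72 h, while no member changed direction or call from 24 h on.

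At 0 h the r of CIDEA with CIDEC (0.923 to 0.969 with single animals left out), CIDEA with the adipocyte sum (0.912 to 0.968) and CIDEC with it (0.882 to 0.983) kept their calls, whereas those with LGALS12 or PLIN4 depended on single animals, most often 103. With single animals left out, r ranged from 0.756 to 0.913 for CIDEA and LGALS12 (0.836 without 103, no longer past the threshold), from 0.582 (without 103) to 0.952 (without 202) for CIDEC and LGALS12, both no longer past it, and from 0.716 (without 103) to 0.92 for LGALS12 and the adipocyte sum. It ranged from -0.101 (without 103) to 0.732 for CIDEC and PLIN4 and from 0.322 to 0.91 (without 104, past the threshold) for LGALS12 and PLIN4, which also passed with total counts (0.696). In the 6 h libraries PLIN4 passed with CIDEA (0.775), CIDEC (0.832), LGALS12 (0.829) and the adipocyte sum (0.861). Without animal 206 at 6 h, chosen after seeing the data, LGALS12 no longer passed with CIDEA (0.699), CIDEC (0.605) or the adipocyte sum (0.737), nor PLIN4 with CIDEA (0.482), CIDEC (0.668), LGALS12 (0.632) or the sum (0.705). By rho PLIN4 passed with none of them at 6 h after adjustment (adjusted exact p 0.14, 0.14, 0.072 and 0.14). Relative to the adipocyte sum at 6 h, CIDEC ranged from -0.16 to 0.25 (-0.163, -0.006 and -0.036 without 103, 201 and 202) and PLIN4 from -0.13 to 0.28 (-0.134, -0.076 and -0.021 without 101, 107 and 201), and without the most abundant adipocyte gene they were -0.037 and -0.03. The cause of these changes was not tested. Depth limits LGALS12 at all times and CIDEC from 24 h on.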
